A study of Schizosaccharomyces pombe with 6 samples.

Results

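The 10 genes described here encode enzymes that remove superoxide and peroxides in fission yeast (Schizosaccharomyces pombe), thioredoxins and their reductase, a sulfiredoxin, and the transcription factor Pap1. They were chosen as the rows of the count table whose gene name, in the authors' deposited comparison table, is ctt1, gpx1, tpx1, srx1, trx1, trx2, trr1, sod1, sod2 or pap1, which gave 10 of 6988 features. All 10 passed the filter on low counts and were tested. Both strains were h- and were harvested from log phase cultures in YES medium. There were 3 libraries of pla1-WT and 3 of pla1-Y86D, and in each strain the pla1 allele was linked to the kanMX drug marker. Pla1 is the nuclear poly(A) polymerase, and Y86D changes its active site, per the series title. The labels give a single strain name for each genotype, and they do not say whether the 3 libraries of a strain came from separate cultures, so the p-values reflect library-to-library spread that may be only technical. No oxidant or other stress is named in the labels.

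In cells, superoxide dismutases turn superoxide into hydrogen peroxide, which catalase, glutathione peroxidase and peroxiredoxin then remove. The peroxiredoxin Tpx1 is oxidised in doing so and is reduced by thioredoxin, which is itself reduced by thioredoxin reductase with NADPH. Too much peroxide over-oxidises Tpx1, and sulfiredoxin repairs it. Oxidised Tpx1 also passes the signal to Pap1, which then stays in the nucleus and turns on genes of the peroxide response.

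Library totals ran from 17594840 to 21849845 counts, and the first principal component, with 92.9% of the variance, separated the strains. Levels are given as CPM, the usual counts-per-million-reads unit, after TMM scaling of the library totals. The pla1 mRNA was at 36.6 ± 0.96 CPM in the control strain pla1-WT (SD, n = 3 per strain). In pla1-Y86D it was at 47.4 ± 0.85 CPM and was called higher (log2 fold change 0.37, edgeR adjusted p = 2.6e-09). This does not check the label, since a point mutation need not change the mRNA of its gene. Markers of mating type gave no clear reading on the h- label. The 6 M-cell genes summed to 106.7 to 112.2 CPM in pla1-WT and 102.8 to 104.3 CPM in pla1-Y86D, and the 4 P-cell genes to 50.8 to 52.8 and 58.4 to 60.6 CPM. Single markers moved in both directions between the strains. Log2 fold changes of pla1-Y86D over pla1-WT ran from -0.95 (mfm2) to 0.80 (mam2) among the M-cell genes. Among the P-cell genes they ran from -0.69 (map3) to 0.58 (map2). No marker was at 0 in any library, and the part of the markers in the results below was not tested. In bulk RNA, more cells with a transcript and more transcript per cell cannot be told apart. The libraries were made from poly(A)+ RNA, and Pla1 is a poly(A) polymerase. A change in the amount of an mRNA therefore cannot be told apart from a change in its poly(A) capture. The mRNA levels below are levels of poly(A)+ RNA.

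The antioxidant genes differed in how they responded. The mRNAs of the glutathione peroxidase gpx1, the sulfiredoxin srx1 and the catalase ctt1 were 2.12 to 2.81 times as high in pla1-Y86D. Those of sod2 and tpx1 rose by 1.40 and 1.22 times. The thioredoxin system and pap1 were at 0.930 to 0.998 of the control level, and sod1 fell to 0.861 of it. By edgeR's quasi-likelihood test with Benjamini-Hochberg adjustment over 6267 features, 5 of the 10 genes rose, 4 fell and 1, trx1, was not called. Of all features tested, 81.2% were called, 40.1% as higher and 41.1% as lower, and of protein-coding features 35.6% and 46.8%. The share of calls among the 10 genes is near this background. Sizes were therefore also tested against a minimum of 1.5-fold with edgeR's glmTreat, which 3 of the 10 passed upward and 0 downward. Of all features tested, 12.1% passed it upward and 6.11% downward, and of protein-coding features 7.55% and 6.47%. The median log2 fold change was 0.14 over the 10 genes and -0.0047 over all features tested.

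**Figure D1:**
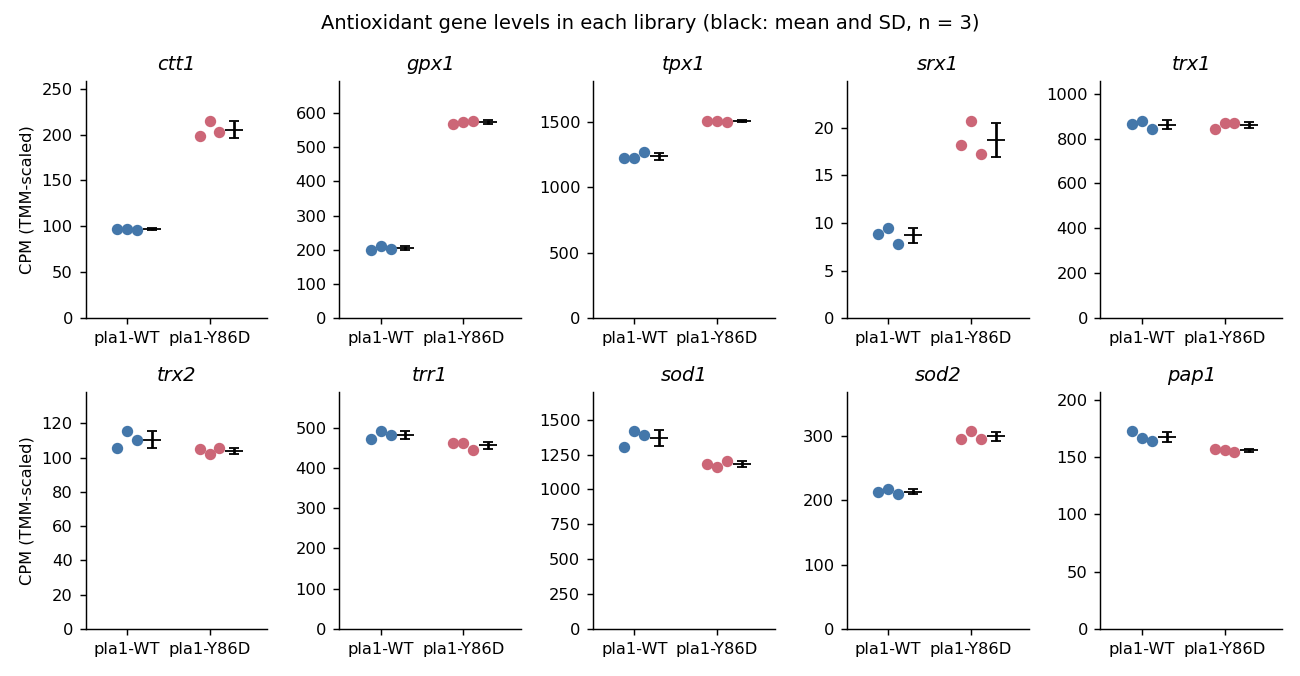
Level of each antioxidant gene in every library, in CPM on a linear axis from 0, with pla1-WT in blue and pla1-Y86D in red and the mean and SD of 3 libraries in black. The panels for gpx1, srx1 and ctt1 show every mutant library above every control library, with means 2.12 to 2.81 times as high, while the trx1 points of the strains lie at one level, from 842.1 to 880.1 CPM.

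The enzymes that remove hydrogen peroxide did not move by a common factor. The gene gpx1 (SPBC32F12.03c), of the glutathione peroxidase, was at 198.9, 210.4 and 202.6 CPM in pla1-WT replicates 1, 2 and 3 and, in the order of the replicates, at 567.7, 574.5 and 577.4 CPM in pla1-Y86D. The lowest mutant library thus stood far above the highest control library. The rise on the log2 scale was 1.49 (SE 0.025, edgeR adjusted p = 3.63e-33), larger than that of 95.3% of features tested and of 97.6% of protein-coding ones. Its value was past 1.5-fold by glmTreat (adjusted p = 8.47e-28). The gene ctt1 (SPCC757.07c), of the catalase, was at 97.5, 97.6 and 96.0 CPM in the control libraries and at 198.0, 215.2 and 202.9 CPM in those of pla1-Y86D. The control libraries lay close together, and all 3 mutant libraries were far above them. This was a log2 fold change of 1.08 with an SE of 0.030 (edgeR adjusted p = 1.80e-26), also past 1.5-fold (glmTreat adjusted p = 2.64e-17). The gene tpx1 (SPCC576.03c), of the thioredoxin peroxidase, had by far the highest counts of the 3, at 1225, 1223 and 1269 CPM in the control libraries and 1511, 1512 and 1504 CPM in those of pla1-Y86D. It rose by 0.28 on the log2 scale (95% interval 0.23 to 0.34, edgeR adjusted p = 1.76e-12), a change that is below 1.5-fold over its whole interval of 1.18 to 1.26 times.

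Sulfiredoxin, the enzyme that restores over-oxidised Tpx1, was the scarcest transcript of the group and rose more than its substrate's. The gene srx1 (SPBC106.02c) was at 8.79, 9.42 and 7.84 CPM in the control libraries and at 18.2, 20.7 and 17.2 CPM in those of pla1-Y86D, on 171 to 207 and 317 to 375 counts per library. The strains did not overlap. The rise on the log2 scale was 1.10 (SE 0.090, edgeR adjusted p = 3.03e-13), with a 95% interval of 1.89 to 2.44 times, wider than for any of the other 9 genes. It passed the 1.5-fold test (glmTreat adjusted p = 1.58e-06).

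The genes of the thioredoxins and thioredoxin reductase showed little change. The cytosolic thioredoxin gene trx1 (SPAC7D4.07c) was at 865.1, 880.1 and 842.1 CPM in the control libraries and at 844.6, 870.2 and 868.0 CPM in those of pla1-Y86D. The groups overlapped, and the difference was within the spread between libraries (log2 fold change -0.0024, edgeR adjusted p = 0.931). Its 95% interval ran from 0.963 to 1.04 times the control, and the sign of the value flipped under other scalings. The thioredoxin reductase gene trr1 (SPBC3F6.03) was at 473.0, 491.1 and 481.8 CPM in the control libraries and 461.3, 461.6 and 444.9 CPM in those of pla1-Y86D. Each mutant library was below each control library, by a small step (log2 fold change -0.081, SE 0.024, edgeR adjusted p = 0.00332). The mitochondrial thioredoxin gene trx2 (SPBC12D12.07c) was at 105.3, 115.4 and 110.5 CPM in the control libraries and at 104.9, 102.1 and 105.3 CPM in those of pla1-Y86D. The lowest control and the highest mutant library were equal to 4 digits. Its log2 fold change was -0.086 (edgeR adjusted p = 0.0181, and from 0.00189 to 0.384 over the alternatives). The call on trx2 was lost with DESeq2 (adjusted p = 0.1001), without pla1-WT replicate 2 (-0.053) and without pla1-Y86D replicate 2 (-0.072). With protein-coding features alone, neither trr1 (-0.026, adjusted p = 0.314) nor trx2 (-0.032, adjusted p = 0.384) was called.

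The superoxide dismutases moved in opposite directions. The mitochondrial enzyme's gene sod2 (SPAC1486.01) was at 213.2, 217.2 and 210.2 CPM in the control libraries and 295.3, 307.3 and 295.9 CPM in those of pla1-Y86D. The rise was 0.49 on the log2 scale (SE 0.025, edgeR adjusted p = 6.33e-19). Its 95% interval of 1.35 to 1.45 times stayed under 1.5-fold. The gene sod1 (SPAC821.10c), of the copper and zinc enzyme, was at 1305, 1417 and 1389 CPM in the control libraries and 1181, 1159 and 1200.3 CPM in those of pla1-Y86D. All 3 mutant libraries were below all 3 control libraries, a log2 difference of -0.22 (SE 0.028, edgeR adjusted p = 1.72e-08). The direction of sod1 was kept in all 13 alternative fits, from -0.25 to -0.16.

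The mRNA of the regulator Pap1 did not rise with those of gpx1, srx1 and ctt1. The gene pap1 (SPAC1783.07c) was at 172.5, 166.2 and 164.2 CPM in the control libraries and 156.6, 156.3 and 154.6 CPM in those of pla1-Y86D. The mutant libraries were lower by a small and even step (log2 fold change -0.11, SE 0.027, edgeR adjusted p = 0.000651). With protein-coding features alone, the value was -0.051 and not called (adjusted p = 0.0801). An mRNA level says nothing about where the Pap1 protein is in the cell, which is how its activity is known to be set.

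**Figure D2:**
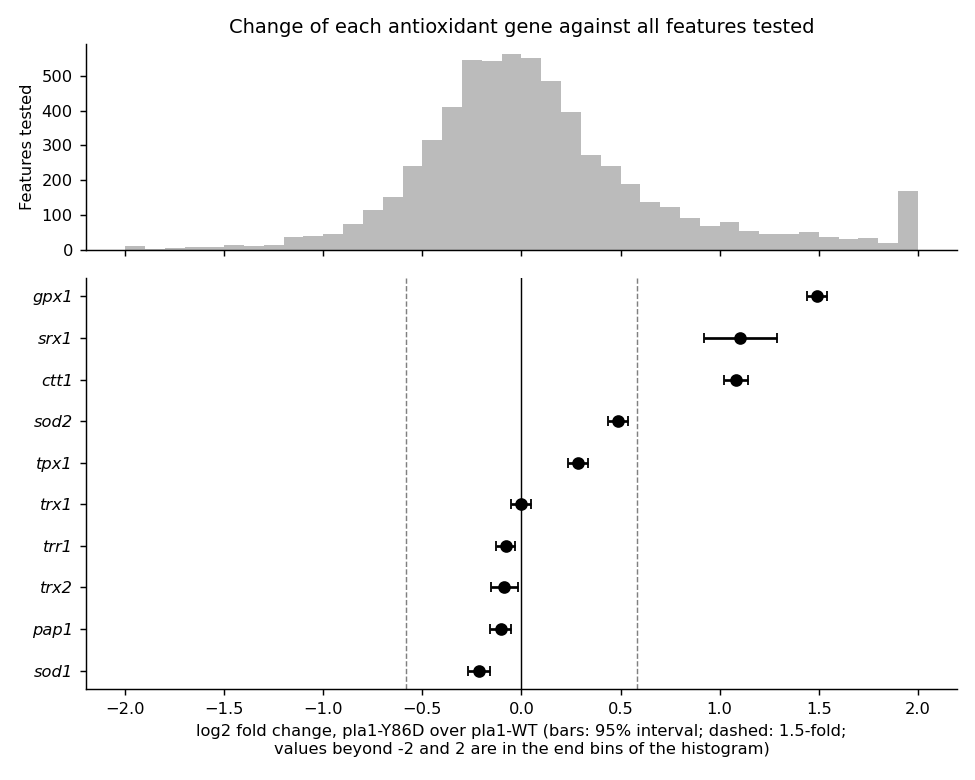
Log2 fold change of pla1-Y86D over pla1-WT for each antioxidant gene with its 95% interval (lower panel), under the histogram of the same value for all 6267 features tested (upper panel). Points for gpx1, srx1 and ctt1 lie to the right of the dashed line at 1.5-fold, and those of trx1, trr1, trx2 and pap1 lie near 0, in the bulk of the histogram.

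In 9 of the 10 genes the CPM values of the strains did not overlap, 5 with the mutant above and 4 with it below. Among those 4 was trx2, whose nearest libraries of the strains were both at 105.3 CPM. The same held for 81.9% of all features tested, 40.4% upward and 41.5% downward, so the absence of overlap is common in these libraries. In the authors' deposited table, 8 of the 10 genes passed an adjusted p of 0.05, 5 of them higher and 3 lower. The gene that was called here and not there was trx2, with an adjusted p of 0.0941 in the authors' deposited table.

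Ratios of counts within a library do not depend on the scaling between libraries, and 7 pairs of the genes were compared in this way. The log2 ratio of gpx1 to tpx1 was -2.62, -2.54 and -2.65 in pla1-WT and -1.41, -1.40 and -1.38 in pla1-Y86D, so gpx1 gained 2.31-fold on tpx1. The ratio of ctt1 to tpx1 rose 1.74-fold and that of srx1 to tpx1 rose 1.77-fold. Between the dismutases, sod2 gained 1.63-fold on sod1, from a log2 ratio of -2.68 ± 0.059 to -1.98 ± 0.056 (SD, n = 3). The ratio of the catalase mRNA to that of its regulator, ctt1 to pap1, went from -0.79 ± 0.030 to 0.40 ± 0.062 on the log2 scale, so ctt1 passed pap1 in counts in every mutant library. For these 5 pairs all mutant libraries were above all control libraries. The two-sided exact permutation p was 0.1 for each, the smallest that 3 libraries against 3 allow, and 0.117 after adjustment over the 7 pairs.

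Within the thioredoxin system the ratios hardly moved. The log2 ratio of trr1 to trx1 went from -0.84 ± 0.033 to -0.92 ± 0.046, with the nearest libraries of the strains at -0.871 and -0.873 (exact permutation p = 0.1, adjusted p = 0.117). That of trx2 to trx1 went from -2.97 ± 0.062 to -3.05 ± 0.041 with overlap between the strains (exact permutation p = 0.2, adjusted p = 0.2).

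**Figure D3:**
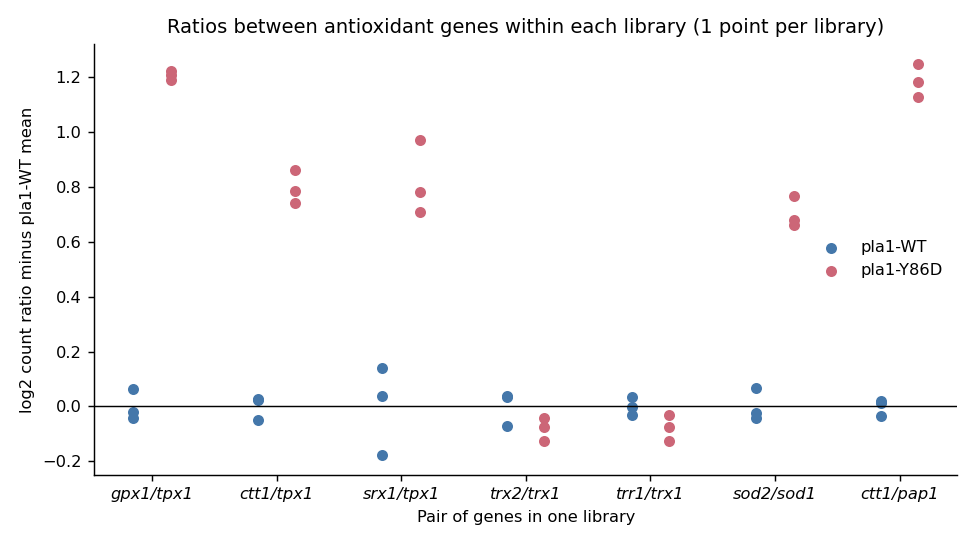
Log2 ratio of the counts of 2 genes in the same library, minus the mean of that ratio in pla1-WT, with 1 point per library, pla1-WT in blue and pla1-Y86D in red. The ratios gpx1/tpx1 and ctt1/pap1 are raised by 1.21 and 1.19, whereas trx2/trx1 and trr1/trx1 lie close to the control points.

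The order of the transcripts by level changed in the mutant. Levels between genes were compared as CPM per kb of transcript, with transcript lengths from the RefSeq annotation of assembly ASM294v3, a different build from that of the counts. In pla1-WT sod1 was highest, at 1796 ± 76 CPM per kb, ahead of tpx1 at 1592 ± 33 and trx1 at 1588 ± 35, which overlapped. Below them came trr1 (356.7 ± 6.7), gpx1 (281 ± 8.1), sod2 (189 ± 3.1), trx2 (101.5 ± 4.6), pap1 (63.6 ± 1.6), ctt1 (44.5 ± 0.42) and srx1 (11.4 ± 1.0), each CPM per kb as mean ± SD of 3 libraries and none overlapping its neighbour. In pla1-Y86D tpx1 was highest, at 1939 ± 5.6 CPM per kb, and sod1 (1547 ± 27) overlapped trx1 (1585 ± 26). The glutathione peroxidase gene gpx1, at 791 ± 6.8 CPM per kb, stood above trr1 (337 ± 7.1), which was followed by sod2 (265 ± 6.0). The catalase gene ctt1 (94.2 ± 4.1) stood above pap1 (59.1 ± 0.41) and overlapped trx2 (95.7 ± 1.6), and srx1 was again last, at 24.6 ± 2.4 CPM per kb.

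The make-up of the peroxide-removing transcripts changed accordingly. Of the length-scaled sum of tpx1, gpx1 and ctt1, tpx1 held 83.0% ± 0.52 in pla1-WT and 68.7% ± 0.26 in pla1-Y86D. The share of gpx1 went from 14.7% ± 0.49 to 27.99% ± 0.21, and that of ctt1 from 2.32% ± 0.059 to 3.33% ± 0.13 (SD, n = 3 per strain). Of the dismutase transcripts, sod2 held 9.53% ± 0.36 and then 14.6% ± 0.49. All 10 genes together took 0.474% to 0.485% of the counts in pla1-WT and 0.530% to 0.536% in pla1-Y86D. These shares are given as a description, with no test.

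**Figure D4:**
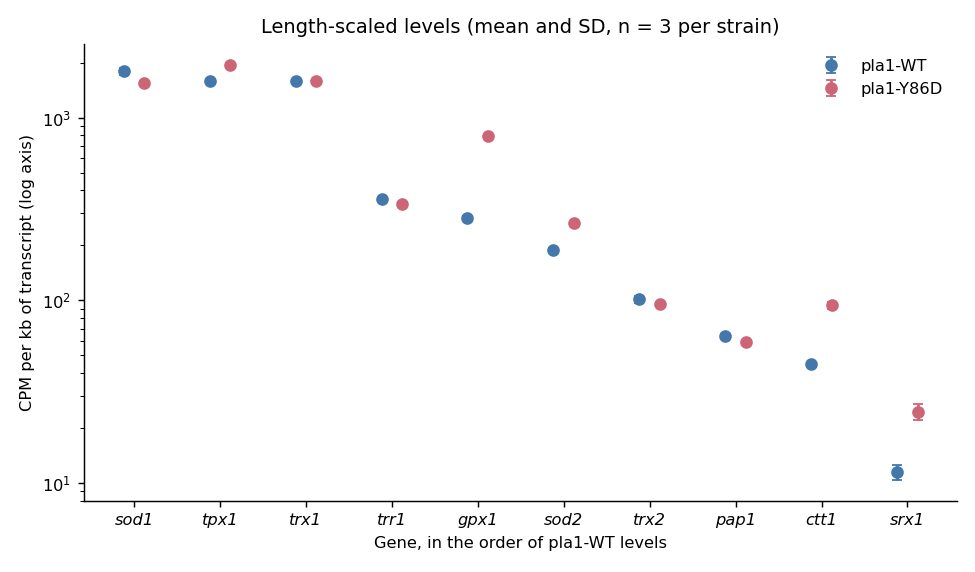
Length-scaled level of each antioxidant gene (CPM per kb of transcript, log axis), ordered by the pla1-WT level, as mean and SD of 3 libraries per strain. The genes span from 11.4 (srx1) to 1796 (sod1) CPM per kb in pla1-WT, and gpx1, ctt1 and srx1 show the widest gaps between the strains.

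Reads of neighbours could enter some of these counts, since the sources used here do not give the counting's strand setting. In the reference annotation no feature overlapped ctt1 or sod1. On the strand of tpx1, the noncoding RNAs SPNCRNA.1258 and SPNCRNA.1259 rose from 0.712 ± 0.49 to 3.45 ± 0.42 CPM and from 3.91 ± 0.44 to 9.46 ± 0.29 CPM, levels far under the 1239 CPM of tpx1. On the strand of srx1, SPNCRNA.1350 rose from 4.88 ± 0.43 to 6.51 ± 0.52 CPM (edgeR adjusted p = 0.00227), against 8.68 ± 0.80 and 18.7 ± 1.8 CPM for srx1 itself. The gene opposite srx1, mph1, was at 67.3 ± 0.061 and 66.5 ± 3.0 CPM and was not called (edgeR adjusted p = 0.746).

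Opposite strand partners of the other genes moved in both directions. Opposite sod2, dsc2 fell from 88.3 ± 1.7 to 64.0 ± 1.1 CPM while sod2 rose. Opposite gpx1, gem7 fell from 13.8 ± 0.65 to 9.68 ± 1.0 CPM. Opposite trx1, SPAC7D4.08 fell from 5.19 ± 0.45 to 3.58 ± 0.64 CPM. Opposite trr1, trr1-antisense-1 rose from 8.0 ± 0.77 to 11.1 ± 0.66 CPM, while the reductase gene fell slightly. Opposite trx2, srb11 was at 31.7 ± 1.1 and 30.0 ± 0.53 CPM (edgeR adjusted p = 0.143). The reference also places noncoding RNAs opposite srx1 (SPNCRNA.4691), trx2 (SPNCRNA.5597), sod2 (SPNCRNA.3424 and SPNCRNA.3425) and pap1 (SPNCRNA.2981 and SPNCRNA.2982), which were not analysed here. The part of these neighbours in the values of the antioxidant genes was not tested.

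Lists of related genes were examined next to the 10. Of 41 genes written in the lists, 39 were matched and tested, 19 of them higher, 18 lower and 2 not called, with a median log2 fold change of 0.041. The shares were 48.7% higher and 46.2% lower. Of all features 40.1% and 41.1% were, and of protein-coding ones 35.6% and 46.8%. By glmTreat 5 of the 39 were past 1.5-fold upward and 4 downward. Of all features 12.1% and 6.11% were, and of protein-coding ones 7.55% and 6.47%. The lists below are small, and each of their counts of calls stands against 40.1% higher and 41.1% lower over all features tested.

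The glutathione system provides the reductant of glutathione-dependent enzymes and conjugates toxic compounds. Of its 13 genes as listed, 7 rose and 4 fell, with a median of 0.092. With 81.2% of all features called, the number of calls says little about this list. Glutathione S-transferase genes led the list, gst3 with a rise from 59.1 ± 4.1 to 118.5 ± 2.3 CPM (log2 fold change 1.00), gst2 with a log2 fold change of 0.87 and gst1 with 0.46 (edgeR adjusted p = 0.00035 or less for each). The glutathione synthetase gene gsa1, picked as the lowest of the list once values were known, was at -0.46 on the log2 scale. The list contained gto1 and gto2, whose names belong to alpha-glucosidase genes here, and without them 6 of 11 rose and 4 fell. Other thiol peroxidase and repair genes rose in 5 of 6 cases and fell in 1, with a median of 0.40, where 40.1% of all features were called higher. The methionine sulfoxide reductase gene mxr2 went from 106.2 ± 4.6 up to 192.5 ± 7.0 CPM (0.85 on the log2 scale), the thioredoxin-like gene txl1 rose by 0.79 and the peroxiredoxin gene bcp1 by 0.48. The member that fell was ccs1 (-0.23), the copper chaperone of superoxide dismutase, which is named because it was the exception. It moved in the same direction as sod1 (-0.22), where 41.1% of all features and 46.8% of protein-coding ones were called lower.

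Genes for regulators of the peroxide response were mostly lower. Of 13, 10 fell and 3 rose, with a median log2 fold change of -0.46, where 41.1% of all features and 46.8% of protein-coding ones were called lower. The transcription factor gene prr1, which acts with Pap1 on catalase, fell from 210.3 ± 4.4 to 105.0 ± 4.0 CPM (log2 fold change -1.0, edgeR adjusted p = 6.87e-26). The peroxide sensor kinase gene mak3 fell by 0.96 on the log2 scale and crm1, of the exporter that takes Pap1 out of the nucleus, by 0.85. These 3 were past 1.5-fold. The gene for the Pap1 cofactor Oxs1 was singled out because it was the highest of the list, at 0.62 on the log2 scale.

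Of 5 targets of Pap1 outside the 10 genes, 3 rose and 2 fell (median 0.33), where 40.1% of all features were called higher and 41.1% lower. The targets pgr1 and gst2, which rose, are also in the glutathione list and were counted in both. The brefeldin A efflux transporter gene bfr1 fell from 496 ± 20 to 177 ± 1.9 CPM (log2 fold change -1.49, edgeR adjusted p = 1.07e-31). In contrast gst2 rose by 0.87 and obr1, a quinone reductase gene, by 0.63. Of 4 genes listed under NADPH supply, 3 rose and 1 fell (median 0.24), where 40.1% and 41.1% of all features were called higher and lower. The transaldolase gene tal1 rose from 871 ± 17 to 1663 ± 40 CPM (0.93) and alone was past 1.5-fold, but its enzyme does not itself make NADPH. On the log2 scale zwf1, of glucose-6-phosphate dehydrogenase, rose by 0.28 and gnd1 by 0.20. The isocitrate dehydrogenase gene idp1 had a log2 fold change of -0.26.

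**Figure D5:**
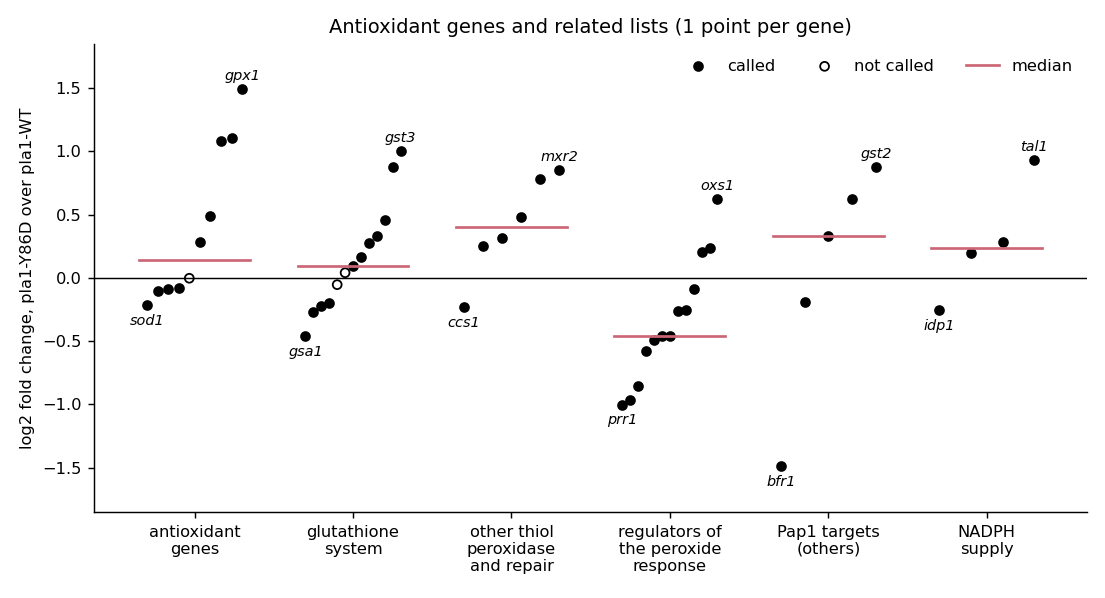
Log2 fold change of pla1-Y86D over pla1-WT for the 10 antioxidant genes and the matched genes of 5 related lists, 1 point per gene, with filled points for called genes and a red line at each median. The lowest and highest gene of each list is named. The regulators lie mostly below 0 (median -0.46) and the thiol repair genes mostly above it (median 0.40).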

How the data were processed

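Poly(A)+ RNA of 6 libraries was sequenced as stranded paired ends, per the labels. The authors deposited whole-number read counts per feature without normalization. Per the submitters' processing notes, the build was ASM294v2, and the tools include HISAT2 2.1.0 and HTSeq 0.10.0. The second table is a DESeq2 comparison by the authors. Its signal columns are mean counts divided by size factors, its log2 columns the fold change and standard error, its score column a Wald statistic, and the p-values raw or adjusted, all as deposited. Its gene names were used to find the genes, and its fold changes and adjusted p-values were used for the 10 genes alone.

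The count table had 6988 features, 6836 (97.8%) of them matched by identifier to RefSeq assembly ASM294v3. That assembly is not the files' build, so it gave feature classes, neighbours and transcript lengths only, and no coordinates or sequences are printed. Low counts were removed with filterByExpr, leaving 6267 features. These were fitted with edgeR 4.0.16 in R 4.3.3 (TMM scaling, robust quasi-likelihood, strain as the only term, all 6 libraries) and tested with glmQLFTest and, against 1.5-fold, glmTreat. Calls are at a Benjamini-Hochberg adjusted p under 0.05 over all features tested. The SE of a fold change is its size over the root of F. The fitting steps were tested on simulated data. Ratios used counts plus 0.5 and an exact permutation test, two-sided.

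Named genes were all 10 members and, per related list, the 3 called genes with the largest change. Outside that rule, gsa1, ccs1, oxs1, gnd1, pgr1, gto1 and gto2 of the related lists were also named. The genes and lists were chosen with earlier results of these data known, so directions already seen are not independent evidence. The listed names trx3 and zwf2 had no match and so are not analysed here. Alternatives used DESeq2 1.42.0, limma-voom (limma 3.58.1), other scalings, no filter, protein-coding features alone, each library left out and a replicate block. Chi-square values between libraries of a strain, 1.63 to 4.77 per degree of freedom, exceeded sampling noise, so none was treated as 1 library deposited more than once. This does not show that they came from separate cultures. Counting precision limits srx1 most, at 171 to 375 counts per library.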

Additional observations from a re-analysis of the deposited data

How the results depend on the processing

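Every scaling used the libraries' own counts, so a shift common to most mRNAs is invisible. In all 13 alternative fits 5 antioxidant genes were higher, 3 of them past 1.5-fold, and 0 were lower past 1.5-fold. The number lower was 3 or 4 in 12 of the fits and 1 with protein-coding features alone, a setting that raised the log2 fold changes by a median of 0.054. The direction of trx1, never called, turned to 0.0043 with DESeq2 and with relative log expression, 0.018 with upper-quartile scaling and 0.052 with protein-coding features alone, and ran from -0.021 to 0.012 with single libraries left out. The call on trx2 was also lost with upper-quartile scaling (-0.066, adjusted p = 0.0666). Replicate numbers showed no sign of pairing the libraries (correlations of same-numbered deviations -0.073, -0.017 and -0.049), which 3 libraries per strain cannot settle. With a replicate block 5 antioxidant genes were higher and 4 lower, and 19 related genes were higher and 18 lower. The features called under the block numbered 2498 higher and 2559 lower. Leaving out gto1 and gto2, chosen after the values were seen, gave 18 and 18 related genes, and their median log2 fold change went from 0.041 to -0.053. The 7 ratios kept their direction with 5 counts added, under the block and without each library.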
